A study of Mus musculus with 8 samples.

Results

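The immunoglobulin kappa light-chain locus of the mouse (Igk) was described through the 60-base probes that a whole-genome array places on it. The members were chosen by position: every non-control probe whose coordinate in the scanner files lies on chromosome 6 between 67500000 and 70680000 of build mm9, which gave 108 of the 39429 probes of the array. No measured value entered that choice. Of these probes, 43 lie on the plus strand and 65 on the minus strand. The files or a RefSeq gene table named 77, of which 73 are V segments, 2 are V segment pseudogenes, 1 is another transcribed pseudogene (4930515G16Rik) and 1 is Rprl1, a gene for the RNA of ribonuclease P. The other 31 carry only the predicted-model or probe name of the array design.

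RNA came from pro-B cells, the B-lineage stage that precedes light-chain rearrangement, of BALB/c mice without Rag1. All 4 groups share that deletion, growth on OP9 stromal cells with IL-7, and a sort for the vector's GFP 4 days after transduction. The groups were adult bone marrow (BM) cells given Lin28b in the pMIG retrovirus, BM cells given empty pMIG, day 16 fetal liver (FL) cells given let-7b in an MSCV retrovirus, and FL cells given empty MSCV, with 2 arrays in each group. A BM sort pooled 2 adult mice and an FL sort pooled an average of 8 embryos. The labels number the replicates by name only, so the p-values below measure the spread between these arrays, which may be partly technical.

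In the germline, Igk is a long array of V segments in both orientations, followed by a short cluster of J segments and 1 constant region, and a V segment becomes part of a light chain only when Rag1 and Rag2 cut it and a J segment at their recombination signals. Unrearranged V and J-C segments are nevertheless transcribed, and this germline transcription accompanies the opening of the locus at the step from pro-B to pre-B cell, where IL-7 receptor signalling through Stat5 holds it back and transcription factors such as E2A and Irf4 promote it. Lin28b binds let-7 precursor RNAs and keeps them from becoming mature microRNAs, and it is normally made in fetal rather than adult blood precursors. The design asks what adult pro-B cells do when they gain it and what fetal ones do when they gain let-7. Cells without Rag1 cannot join V to J segments. Which templates bound the kappa probes here was not tested.

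The sequences on which the results turn are shown as the array design gives them, 5′ to 3′, with mm9 positions. Capitals mark letters of the form TATTANTG, which in V segments spell the conserved tyrosine-tyrosine-cysteine codons before the joining end, and the recombination signal heptamer CACAGTG. The first group is shown because it bears on which template was measured: it holds the probe nearest the J-C end (capitals: its closing cysteine and stop codons), a V segment well above background on every array, and 3 probes that hold the heptamer, in LOC100047220 and LOC100046973 after such codons and in LOC100047024 with none in the probe.
LOC100047628, chr6:70676692-70676751, plus strand: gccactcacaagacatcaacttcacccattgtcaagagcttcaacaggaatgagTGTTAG
Igkv19-93, chr6:68686311-68686370, minus strand: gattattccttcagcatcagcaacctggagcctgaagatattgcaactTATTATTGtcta
LOC100047220, chr6:68830159-68830218, minus strand: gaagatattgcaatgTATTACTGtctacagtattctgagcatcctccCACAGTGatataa
LOC100046973, chr6:69714492-69714551, minus strand: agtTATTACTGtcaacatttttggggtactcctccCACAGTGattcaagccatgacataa
LOC100047024, chr6:69913261-69913320, minus strand: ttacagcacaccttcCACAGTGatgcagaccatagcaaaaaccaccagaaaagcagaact

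The next group is shown because its members differed between tissues, and because the first pair share most of their letters with each other and with a V segment probe that the design places far outside the locus, at chr6:43031517-43031576 (ENSMUST00000103301, IMGT name IGKV2-a).
Igkv2-109, chr6:68102545-68102604, plus strand: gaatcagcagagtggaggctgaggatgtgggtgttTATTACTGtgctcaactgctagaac
LOC100046496, chr6:68253091-68253150, plus strand: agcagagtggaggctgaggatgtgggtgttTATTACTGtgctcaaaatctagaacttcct
ENSMUST00000103301, minus strand: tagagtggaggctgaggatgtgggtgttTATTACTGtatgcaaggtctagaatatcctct
Igkv6-17, chr6:70321926-70321985, plus strand: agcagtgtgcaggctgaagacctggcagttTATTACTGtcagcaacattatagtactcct
Igkv1-88, chr6:68812259-68812318, minus strand: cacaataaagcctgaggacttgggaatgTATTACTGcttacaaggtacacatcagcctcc

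The last pair is shown because an unnamed member of the window shares most of its letters with a probe on chromosome 3 (NAP113406-1). Capitals mark the aligned stretch, in which 40 of 41 bases are identical.
A_55_P1988328, chr6:68684156-68684215, minus strand: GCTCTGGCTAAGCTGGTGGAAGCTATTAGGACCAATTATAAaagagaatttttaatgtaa
NAP113406-1, chr3:116701890-116701949, minus strand: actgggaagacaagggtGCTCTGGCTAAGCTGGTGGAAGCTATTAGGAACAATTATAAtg

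TATTANTG was found on the probe strand of 30 of the 108 kappa probes (27.8%), against 0.515% of all 39429 probes, and on the other strand of 2 (1.85%, against 0.454%). CACAGTG was found on the probe strand of 5 kappa probes (4.63%, against 0.784% of all probes) and on the other strand of 1 (0.926%, against 0.794%). In LOC100047220 and LOC100046973 the heptamer starts after 24 bases that follow the codons. In Igkv4-92 and Igkv4-86 the letters lie near the 5′ end of the probe with no such codons before them. The design gives these probes mm9 spans longer than their 60 bases, chr6:68705285-68705549 and chr6:68860655-68860899. Their letters are therefore not shown to be a recombination signal. The transduced microRNA, mmu-let-7b-5p in RefSeq (GRCm38.p6), is shown with its seed, bases 2 to 8, in capitals.
mmu-let-7b-5p: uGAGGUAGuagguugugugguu
The complement of that seed, CTACCTC, was in 0 of the 108 probes on either strand (0.38% and 0.198% of all probes), which says only that these letters are not in these 60 bases.

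Many kappa probes are close relatives. In 24 of them at least 48 bases are identical in an alignment with another kappa probe; Igkv4-62 and Igkv4-57-1 share an unbroken run of 53 bases, and Igkv2-109 and the LOC100046496 probe shown above one of 45. Neighbouring V segments of 1 subgroup are therefore not independent measurements. Outside the window, 7 kappa probes had a partner with at least 30 identical bases: 6 distal V probes with ENSMUST00000103301, and A_55_P1988328 with 4 probes on chromosomes 3, 13, 16 and 1.

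On each array a probe's level was taken as log2 of the processed signal relative to the 75th percentile of that array, and Feature Extraction's flag for signal well above background served as the measure of detection. The 75th percentile was 1920 to 2230 signal units on the BM arrays and 271 to 488 on the FL arrays, and the lowest level well above background was -7.14 to -6.87 in BM and -5.65 to -4.49 in FL. Dim probes were thus measured further down in BM than in FL. The 4 BM arrays shared slide 1 and scan 1, FL replicate 1 of both groups shared the second slide and FL replicate 2 of both the third. At 1 probe of the transduced gene Lin28b (A_52_P532355) neither BM empty-vector array was well above background, and it was at least 137-fold higher with Lin28b (limma with Benjamini-Hochberg adjusted p = 0.00174). The other Lin28b probe (A_55_P1970905) had levels of -5.86 and -5.75 with Lin28b and -6.58 and -6.32 in BM empty vector, a difference of 0.64 ± 0.28 (adjusted p = 1); the labels do not say which part of the transcript the vector carries. Neither Rag1 probe is known from the files to lie in the deleted part, so their signal checks nothing. Pro-B markers gave summed levels (log2 of the summed linear levels) of 8.19 and 8.31 with Lin28b, 8.57 and 8.48 in BM empty vector, 9.58 and 9.68 with let-7, and 9.38 and 9.86 in FL empty vector. Markers of other cells were mixed. Of 7 hepatocyte markers, Alb, Apoa1, Ttr and Fgb were not well above background on any array, while Apoa2 was on all 8 and Serpina1a on 7. Of 8 T, NK and innate lymphoid markers, Cd3g and Ncr1 were on none, while Cd3e, Cd4 and Lck were on all 8 and Cd8a on 4, all FL. Of the erythroid markers, Alas2 was on none, and Hba-a1, Epor and Tfrc were on all 8.

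Detection of the locus was patchy. Of the 108 kappa probes, 31 were well above background on all 8 arrays, 34 on none and 9 on 1. Per array, 57 and 65 kappa probes were well above background with Lin28b, 58 and 55 in BM empty vector, 52 and 38 with let-7, and 49 and 37 in FL empty vector. The ranges of virus and empty vector overlapped in both tissues. All probes of the array shared the fall from the second to the third slide, but not a fall from BM to the second. Of all probes, 64.2 to 67.8% were well above background on the BM arrays. On the FL arrays they were 68.5 and 67.7% on the second slide and 56.7 and 56% on the third. The kappa shares were 50.9 to 60.2% on the BM arrays, 48.1 and 45.4% on the second slide and 35.2 and 34.3% on the third. The cause was not tested.

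The shares that were well above background on both arrays of a group set the kappa locus between other receptor loci. They were 51.9% of kappa probes with Lin28b, 47.2% in BM empty vector, 34.3% with let-7 and 34.3% in FL empty vector. The 171 probes of the heavy-chain locus, the receptor gene that is opened first in B cell development, had 71.9%, 71.3%, 38.6% and 34.5% in the same order, and the 41 probes of the T cell receptor beta locus 19.5%, 14.6%, 17.1% and 19.5%. All 6 lambda light-chain probes were well above background on all arrays of all groups. All probes together had 65.6%, 63.1%, 56.1% and 55.3%. These shares are descriptions and depend on how well each probe binds.

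Detection changed along the locus. The probes at the J-proximal end, from 70.5 to 70.68 Mb, were nearly all measured: of 9 probes, 8 were well above background on both Lin28b arrays, 9 on both BM empty-vector arrays, 7 with let-7 and 7 in FL empty vector. From 69.5 to 70.5 Mb, where all 5 Igkv6 and all 7 Igkv8 probes lie, 10 of 40 were so with Lin28b, 9 in BM empty vector, 9 with let-7 and 10 in FL empty vector, and 18 were not well above background on any array. From 68.5 to 69.5 Mb, where 14 of 31 probes belong to Igkv4, the counts were 22 with Lin28b, 17 in BM empty vector, 9 with let-7 and 8 in FL empty vector. In the distal stretch from 67.5 to 68.5 Mb they were 16 of 28 in both BM groups and 12 in both FL groups.

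Subgroups of V segments, which share sequence, differed in the same way. All 6 Igkv3 probes and 16 of 18 Igkv4 probes were well above background on at least 2 arrays, which was the condition for testing, against 3 of 7 Igkv8, 2 of 5 Igkv6 and 1 of 4 Igkv12 probes. Of the 9 Igkv1 probes, 6 were well above background on all 8 arrays and 3 on none. Probes of 1 named gene did not always behave alike: of 13 names with more than 1 probe, all probes were tested for 5, none for 3 and only some for 5. Igkv10-96, for example, was well above background on all 4 BM arrays at 1 probe and on none at a neighbouring probe.

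Of the 5 probes with the letters CACAGTG on their strand, the 2 that hold them after the codons gave signal on every array. LOC100047220 had levels of -3.22 and -3.07 with Lin28b, -3.16 and -3.24 in BM empty vector, -3.49 and -3.71 with let-7, and -3.82 and -4.02 in FL empty vector, well above background on all 8 arrays. LOC100046973 (the probe shown above) had -3.52 and -3.3 with Lin28b, -3.59 and -3.58 in BM empty vector, -4.46 and -4.26 with let-7, and -4.17 and -3.6 in FL empty vector, also on all 8. In the first both FL groups lay below both BM groups, and in the second the FL empty-vector arrays lay below every BM array, by little at replicate 2. Of the other 3, which have no such codons before these letters, Igkv4-86 was well above background on 6 arrays, Igkv4-92 on 3 and LOC100047024 (the probe shown above) on 0.

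At the J-C end, the LOC100047628 probe was well above background on all 8 arrays, and the files give it no Igkc name. Its signals were 17900 and 24600 with Lin28b and 17500 and 18500 in BM empty vector, and 2910 and 4550 with let-7 and 4810 and 2880 in FL empty vector. Relative to each array's 75th percentile these are levels of 3 and 3.57 with Lin28b, 3.18 and 3.11 in BM empty vector, 2.58 and 3.28 with let-7, and 3.31 and 3.41 in FL empty vector. The Lin28b arrays lie on either side of their controls, and both let-7 arrays lie below theirs. The differences were 0.14 ± 0.29 with Lin28b (SE; adjusted p = 1), -0.43 ± 0.29 with let-7 (adjusted p = 0.709) and 0.21 ± 0.29 between FL and BM empty vector (adjusted p = 0.555). None passed the test. The nearest probe beyond the window, which a synonym in the RefSeq table names Igkc (chr6:70690489-70690548), had -4.63 and -5.05 in FL empty vector, with 1 of 2 arrays well above background, and -3.71 and -4.28 in BM empty vector, a difference of -0.85 ± 0.28 (adjusted p = 0.0442). That probe lies beyond the LOC100047628 probe, whose letters close with cysteine and stop codons. Which of these probes measures the constant region was not tested, so the lower value is not shown to be that of the constant region. At the other border, Igkv2-137, the first probe inside the window, was well above background on 0 arrays.

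Igkv19-93 lies in the middle of the locus and is among the kappa probes of highest level in each group. It had -1.06 and -0.87 with Lin28b, -0.79 and -1.01 in BM empty vector, -0.47 and -0.35 with let-7, and -0.81 and -0.57 in FL empty vector. Its differences were -0.06 ± 0.16 with Lin28b, 0.28 ± 0.16 with let-7 and 0.21 ± 0.16 for FL minus BM empty vector, with adjusted p of 1, 0.661 and 0.295, so none passed the test.

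The effect of Lin28b in adult cells was tested over all 28410 probes that were well above background on at least 2 arrays, 65 of them kappa probes. With Lin28b, 0 of 65 kappa probes were called higher and 0 lower at an adjusted p under 0.05 (limma, Benjamini-Hochberg), against 0.00352% of all tested probes called higher, which is the Lin28b probe alone, and 0% called lower. At an unadjusted p under 0.05 there were 3 kappa probes (4.62%, against 3.46% of all probes), and all 3 were lower. The median kappa difference was -0.06, against -0.04 for all tested probes, and 30 were positive and 35 negative.

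The 3 lower probes lie together at the J-proximal end. The V segment probe of LOC100047628 (chr6:70653921-70653980) had -5.71 and -5.54 with Lin28b and -5.08 and -4.87 in BM empty vector, a difference of -0.65 ± 0.24 (unadjusted p = 0.0368). Igkv3-9 had -5.9 and -5.64 with Lin28b and -5.18 and -5.32 in BM empty vector, a difference of -0.52 ± 0.19 (unadjusted p = 0.032). Igkv3-4 had -4.69 and -4.49 with Lin28b and -4.18 and -4.24 in BM empty vector at 1 probe (A_55_P2183369), a difference of -0.38 ± 0.14 (unadjusted p = 0.0393). In each, both Lin28b arrays lay below both empty-vector arrays, and each adjusted p was 1.

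The other probes of that end had the same sign. From 70.5 to 70.68 Mb, 8 of 9 tested probes had a negative difference, with a median of -0.52, and in 8 both Lin28b arrays lay below both empty-vector arrays. The ninth is the J-C end probe. All 6 Igkv3 probes are among the 8, with differences of -1.27 to -0.35. The -1.27 belongs to the Igkv3-10 probe A_55_P1978033, at -5.98 and -5.34 with Lin28b and -5.32 and -3.47 in BM empty vector, where 1 control array stands apart. Over the whole kappa locus the 2 Lin28b arrays lay below both controls in 11 of 65 tested probes and above them in 5, against 33.3% and 17.8% of all tested probes. The stretch was singled out after its values were seen, its probes share sequence, and no probe in it passed the test. Markers of stromal cells moved with Lin28b: 10 of 10 had a positive difference (median 1.07, 0 called), and their summed levels were 5.71 and 5.09 with Lin28b and 4.33 and 4.58 in BM empty vector. Their part in the kappa values was not tested.

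The effect of let-7 in fetal cells was tested in the same fit. With let-7, 0 of 65 kappa probes were called higher and 0 lower, against 0.0176% and 0.00704% of all tested probes. At an unadjusted p under 0.05 there were 8 (12.3%, against 9.64% of all probes), of which 2 were higher and 6 lower. Since both FL groups share a slide at each replicate number, the fit was repeated with the replicate number as a block. That fit gave 17 (26.2%, against 12.1% of all probes), 3 higher and 14 lower. The block also entered the BM arrays, which all share a slide. On the 4 FL arrays alone there were 6 (9.23%, against 3.3%), and 0 kappa probes were called in either fit. In simulated data the fit over all 8 arrays called unchanged probes in this comparison more often than its threshold allows, so its p-values here may be too small. The median kappa difference was -0.25, against -0.05 for all probes, with 18 positive and 47 negative (72.3% negative, against 57.1% of all probes). On both FL slides the let-7 array was below its control in 34 of the 65 (35.1% of all tested probes were) and above it in 5 (22.9%). These counts include tested probes that were not well above background on any FL array, whose signs the arrays did not measure. Such probes are Igkv9-124, among the 2 higher in the main fit, and Igkv10-96, among the 6 lower. Negative let-7 differences were not particular to kappa among the receptor loci. All 6 lambda probes were negative (median -1.7), as were 14 of 15 tested T cell receptor beta probes (median -0.31). In the heavy-chain locus 51 of 126 tested probes were negative and 75 positive (median 0.2).

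Lower values with let-7 were frequent in the distal stretch. From 67.5 to 68.5 Mb, 14 of 18 tested probes had a negative difference, with a median of -0.53, and 13 were negative on both slides. Among the 18, Igkv14-130, Igkv9-124, Igkv9-123 and Igkv9-120 were not well above background on any FL array. Their differences of -0.13, 1.53, -0.45 and 0.99 have no measured direction. Igkv2-109 had -2.9 and -2.63 with let-7 and -1.83 and -1.21 in FL empty vector, a difference of -1.25 ± 0.31 (adjusted p = 0.313). LOC100046496 had -3.04 and -3.1 with let-7 and -2.05 and -1.36 in FL empty vector at the probe shown above, a difference of -1.37 ± 0.28 (adjusted p = 0.238). At its other probe, starting at 68253070, it had -2.57 and -1.97 with let-7 and -1.66 and -0.71 in FL empty vector, a difference of -1.08 ± 0.42 (adjusted p = 0.505). In all 3 both let-7 arrays lay below both controls. The probe outside the locus that shares their letters, ENSMUST00000103301, had -3.68 and -3.6 with let-7 and -2.67 and -2.04 in FL empty vector, a difference of -1.28 ± 0.3 (adjusted p = 0.281), and which template bound these letters cannot be told apart here. The median was -0.99 without FL empty-vector replicate 1 and -0.2 without FL empty-vector replicate 2. Under another background correction (normexp) only 8 of the 18 distal probes were negative, with a median of 0.35 where the median of all probes was 0.36.

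Elsewhere the largest let-7 difference was that of Igkv10-96 (chr6:68581985-68582044), which was not well above background on any FL array, so its difference has no direction that the arrays measured. Igkv3-9 had -5.7 and -5.67 with let-7 and -5.08 and -4.68 in FL empty vector. It was well above background on 1 FL empty-vector array and no let-7 array, and its difference missed the test (adjusted p = 0.278). Its bound of 1.21-fold lower counts the other empty-vector array too, which was not well above background. That bound is therefore not a sure minimum. LOC676193, a predicted model, had -4.09 and -4.49 with let-7 and -3.64 and -3.49 in FL empty vector, a difference of -0.73 ± 0.25 (adjusted p = 0.451), with 1 of 2 let-7 arrays well above background. Igkv1-88 had -3.87 and -3.76 with let-7 and -4.54 and -4.38 in FL empty vector, a difference of 0.65 ± 0.15 (adjusted p = 0.289), with both let-7 arrays above both controls. The stromal markers gave summed levels of 4.24 and 3.86 with let-7 and 3.05 and 3.35 in FL empty vector, with 8 of 10 differences positive, median 0.97 and 0 called. Their part in the kappa values was not tested.

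The tissues were compared between the empty-vector groups, FL minus BM. The vector, the slide and the scan changed with the tissue, so tissue, vector and batch cannot be told apart. Of the 65 tested kappa probes, 28 were called higher in FL and 8 lower (43.1% and 12.3%), against 39.1% and 19.8% of all tested probes, so the locus as a whole was near the background in both directions. The median kappa difference was 1.09, against 0.47 for all probes. With quantile scaling, which moves the median of all probes to 0, the split was 13 higher and 14 lower. With normexp, where that median was 0.97, it was 29 higher and 0 lower. The 39.1% and 19.8% hold for the main fit only, and the shares of all probes under each other setting are not given here. Without BM empty-vector replicate 1 the main fit called 18 higher and 4 lower, and without BM empty-vector replicate 2 it called 18 and 5. Both main and quantile scaling called 13 kappa probes higher and 8 lower (24.3% and 19.6% of all tested probes). In the heavy-chain locus 15 of 126 tested probes were called higher and 84 lower (11.9% and 66.7%), and of 6 lambda probes 4 were higher and 1 lower. In the T cell receptor beta locus 10 of 15 tested probes were called higher and 0 lower (66.7% and 0%), with a median of 1.84. Whether the loci differ was not tested. Stromal markers moved with the tissue, with 0 of 10 called higher and 6 lower and summed levels of 3.05 and 3.35 in FL empty vector and 4.33 and 4.58 in BM empty vector, and myeloid markers had 5.94 and 4.86 in FL empty vector and 3.2 and 3.27 in BM empty vector, with 5 of 11 called higher and 1 lower. Of the other lists, 5 of 6 tested T, NK and innate lymphoid markers were called higher (median 1.65), 5 of 10 mature B and plasma cell markers higher and 1 lower (median 0.71), 2 of 3 hepatocyte markers higher (median 2.44), 1 of 4 erythroid markers higher (median 0.27), and 4 of 9 pro-B markers higher and 1 lower (median 0.38). Their part in the kappa values was not tested. FL levels in this comparison are the same 2 arrays that served as control for let-7.

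Several distal probes were higher in FL. Igkv2-109 had -1.83 and -1.21 in FL empty vector and -3.92 and -3.85 in BM empty vector, a difference of 2.36 ± 0.31 (adjusted p = 0.00197). LOC100046496 had -2.05 and -1.36 in FL empty vector and -3.97 and -4 in BM empty vector at the probe shown above, a difference of 2.28 ± 0.28 (adjusted p = 0.00171). The look-alike ENSMUST00000103301 had -2.67 and -2.04 in FL empty vector and -4.8 and -4.67 in BM empty vector, a difference of 2.37 ± 0.3 (adjusted p = 0.00176). Their neighbours Igkv1-133, Igkv1-132, Igkv1-117, Igkv1-110, LOC100046350 and LOC675735 were also called higher, by 1.36 to 2.28. Under quantile scaling Igkv1-133, Igkv1-132, Igkv1-110 and LOC675735 were not called, with differences of 1.79, 1.43, 1.16 and 1.12 (adjusted p = 0.0762, 0.174, 0.145 and 0.0803). Of 18 tested distal probes, 10 were called higher and 2 lower, against 39.1% and 19.8% of all probes, and 5 and 2 were called in that direction under both scalings.

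Some middle and J-proximal segments were higher as well. Igkv6-17 had -3.92 and -3.3 in FL empty vector and -6.94 and -6.98 in BM empty vector, where neither array was well above background, so it was at least 9.7-fold higher (adjusted p = 0.00124). Igkv8-30 likewise was at least 7.27-fold higher in FL (adjusted p = 0.00412). It is the 1 kappa probe that was well above background on all 4 FL arrays and no BM array. Igkv4-71 had -1.84 and -1.16 in FL empty vector and -3.18 and -3.19 in BM empty vector, a difference of 1.68 ± 0.25 (adjusted p = 0.00311). Igkv4-51 had -4.01 and -4 in FL empty vector and -5.67 and -5.56 in BM empty vector, a difference of 1.61 ± 0.24 (adjusted p = 0.00285). Igkv8-24 had -3.21 and -3.09 in FL empty vector and -4.36 and -4.4 in BM empty vector, a difference of 1.24 ± 0.16 (adjusted p = 0.00202), which was 0.43 with an adjusted p of 0.0979 under quantile scaling. At the J-proximal end 5 of 9 were called higher (39.1% of all probes were), among them LOC100047222 by 1.3 ± 0.24 (adjusted p = 0.00585). Under both scalings 2 of them were called, and the Igkv3-4 probe A_55_P2183369 had 0.69 in the main fit and -0.15 under quantile scaling (adjusted p = 0.409).

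Other kappa probes were called lower in FL, 8 in all, spread over the locus. Igkv1-88 had -4.54 and -4.38 in FL empty vector and -2.78 and -2.72 in BM empty vector, a difference of -1.71 ± 0.15 (adjusted p = 0.000842). Igkv12-89 had -4.26 and -4.9 in FL empty vector, with 1 of 2 arrays well above background, and -2.94 and -2.95 in BM empty vector, a difference of -1.64 ± 0.24 (adjusted p = 0.00268). The unnamed A_55_P2051044 (chr6:70081318-70081377) had -3.25 and -3.77 in FL empty vector and -1.99 and -1.87 in BM empty vector, a difference of -1.58 ± 0.19 (adjusted p = 0.00162). Igkv9-124, a distal segment among those that were higher, was well above background on all 4 BM arrays and no FL array and was at least 1.96-fold lower in FL (adjusted p = 0.00378). Igkv9-123, Igkv4-62 and Igkv3-2 were also called lower but give no bound, since the FL floor lies above their BM levels, and LOC100047220, which holds the heptamer, was lower by a difference of -0.72 (adjusted p = 0.00957). Under quantile scaling all 8 were called lower too, with differences of -3.93 to -1.47. Under normexp 0 kappa probes were called lower, and the Igkv1-88 and Igkv12-89 differences were 0.13 and 0.15.

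The unnamed probe A_55_P1988328 was called higher in FL, and its letters are shared by probes elsewhere. It had signals of 228000 and 150000 in FL empty vector and 409000 and 292000 in BM empty vector, levels of 8.88 and 9.11 against 7.73 and 7.09, and a difference of 1.59 ± 0.23 (adjusted p = 0.00284). Its look-alike on chromosome 3, NAP113406-1, had 9.08 and 9.45 in FL empty vector and 7.89 and 7.89 in BM empty vector, a difference of 1.38 ± 0.16 (adjusted p = 0.00147). Under quantile scaling the difference of A_55_P1988328 was -0.1 (adjusted p = 0.716).

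Genes known to open or restrain the kappa locus were read from lists. Of 17 tested kappa activators, 0 were called with Lin28b and 0 with let-7, and 7 were called higher and 2 lower in FL, close to the 39.1% and 19.8% of all tested probes (4 and 2 under quantile scaling). Irf4, a factor that binds the kappa enhancers, had 3.61 and 3.92 in FL empty vector and 1.75 and 1.68 in BM empty vector, a difference of 2.06 ± 0.2 (adjusted p = 0.000963). Foxo1, which promotes recombinase expression, was higher by 1.43 ± 0.17 (adjusted p = 0.00149) and Irf8, related to Irf4, differed by -0.99 ± 0.12 (adjusted p = 0.00143). Of 12 genes that restrain the locus, 0 were called with either virus, and 5 were higher and 6 lower in FL, against the same 39.1% and 19.8% of all probes (4 and 6 under quantile scaling). Among them Jak3, a kinase of the IL-7 receptor, was higher by 1.71 ± 0.18 (adjusted p = 0.00114). Id3, Ccnd3, Stat5b and Il7r were higher by 1.1, 1.36, 0.9 and 1.1 (adjusted p = 0.00148, 0.00362, 0.00502 and 0.00673). Under quantile scaling Ccnd3 was not called (0.4, adjusted p = 0.0796). The Polycomb genes Ezh2, Eed and Suz12 had differences of -0.83, -0.7 and -1.45 (adjusted p = 0.00755, 0.00634 and 0.00728). Stat5a, Id2 and Myc were lower too, with differences of -0.54, -1.03 and -0.96 (adjusted p = 0.0329, 0.0204 and 0.0194).

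All 8 tested genes of the pre-B receptor and its signalling were called higher in FL in the main fit (39.1% of all probes were), but only 4 under quantile scaling, where 1 was called lower. Cd79a and Vpreb2 were higher by 1.94 ± 0.18 and 1.1 ± 0.12 (adjusted p = 0.00088 and 0.00118). Under quantile scaling they were higher by 1.91 and 0.52 (adjusted p = 0.000805 and 0.0112). Cd79b, a signalling chain of the receptor, was higher by 2.3 ± 0.29 (adjusted p = 0.00178), and by 1.04 under quantile scaling (adjusted p = 0.00779). Vpreb1, part of the surrogate light chain that stands in before kappa is made, had a difference of 1.18 ± 0.15 (adjusted p = 0.00198), which was -0.48 under quantile scaling (adjusted p = 0.0176), so its direction depends on the scaling. Btk and Plcg2, signalling proteins behind the receptor, had differences of 0.39 and 0.36, below the median of all probes. Of 8 tested genes of locus architecture, 5 were called lower and 0 higher, against 19.8% and 39.1% of all probes (6 and 0 under quantile scaling), among them Nipbl, the cohesin loader, with -1.88 ± 0.23 (adjusted p = 0.00172), and Ctcf, with -0.55 ± 0.16 (adjusted p = 0.0278). In these lists too 0 genes were called with Lin28b or let-7. Brwd1, a chromatin reader needed for kappa recombination in mouse, had the smallest let-7 p of the architecture list, with -3.12 and -3.01 with let-7 and -2.48 and -2.24 in FL empty vector, a difference of -0.71 ± 0.16 (adjusted p = 0.278).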

How the data were processed

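Total RNA of 8 samples was amplified from 100 ng and hybridised to 1-colour Agilent arrays, per the labels' protocols. The deposited intensity values are background-subtracted spot signals from Agilent Feature Extraction 9.5.3.1, per the file headers. A second deposited table holds log2 values normalized by the authors, and no source used here gives its method. Against the scanner signals its columns had slopes of 0.951 to 1.01 on bright spots, and its column medians were 7.14 to 7.16 in BM and 6.13 to 6.14 in FL, so it was read as log2, with unknown centring, and tested within a tissue only.

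Of 44397 spots, 1377 control spots were left out, copies of a probe were averaged without outlier spots, and 31 probes with no other copy were left out. Levels are log2 ratios of processed signal to the 75th percentile of that array. Probes well above background on at least 2 of 8 arrays were tested, 28410 in all, 65 of the 108 kappa probes among them. limma 3.58.1 (lmFit, eBayes; R 4.3.3) fitted 1 mean per group, and p was adjusted by Benjamini-Hochberg over all tested probes, with calls at an adjusted p under 0.05. Errors are standard errors. For 2 arrays against 2 the smallest exact permutation p is 0.333, so calls rest on the spread shared across probes, and the number of arrays limits the precision. A group in which no array was well above background has only a bound: the mean of the brighter group was set against the dim group's mean of, on each array, the higher of the probe's own level and the lowest one well above background. Probes were aligned with BLAST 2.17.0 (word size 11, probe strand only; Python 3.11.15).

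V segments took their IMGT names in the files, and other probes a symbol, accession or synonym of a RefSeq table (GRCm38.p6), whose coordinates were not used for genes. The mm9 exon limits were not used here. The rule named every probe at or beyond the J cluster, up to 10 called kappa probes per comparison by adjusted p, the 5 of highest level in each group, the probes at the borders, and up to 4 genes of a list by smallest p. Any other probe was picked with its values in view. The members and lists were chosen with earlier results of these data known. The fit was tested on simulated data, where it called unchanged probes too often in the let-7 comparison. In FL the replicate number marks a shared slide and scan, per the file headers. In BM nothing shows that it pairs the arrays. Replicate differences of the 2 groups correlated by -0.0613 in BM and 0.514 in FL, with 2 pairs each. Alternatives were the scaling, the background correction, the filter, trend and robust shrinkage, the arrays fitted, a replicate block, the authors' table and leaving out each array.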

Additional observations from a re-analysis of the deposited data

How the results depend on the processing

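With Lin28b and with let-7, 0 kappa probes were called under every alternative run. Between FL and BM empty vector the main fit called 36 (28 higher, 8 lower), and quantile scaling called 27 (13 and 14), normexp 29 (29 and 0), no filter 53 of 108 (46 and 7), a filter of 4 of 8 arrays 35 (28 and 7), trend and robust shrinkage 33 (27 and 6), and only the arrays compared 33 (25 and 8). The replicate block called 40 (30 and 10) between tissues and 0 with either virus; the number pairs the FL arrays by slide and is not shown to pair the BM arrays. Leaving out 1 array gave 22 to 39 calls, 22 without BM empty-vector replicate 1 and 23 without replicate 2. The median of all probes between tissues was 0.47 in the main fit, 0 with quantile scaling and 0.97 with normexp. The shares of all probes called under each alternative are not given here, so these counts show no trait particular to kappa. Counting the weaker flag (positive and significant) gave a mean of 89 kappa probes per array with Lin28b, 84 in BM empty vector, 70.5 with let-7 and 72 in FL empty vector. The mean of the arrays' median kappa levels was -5.88 with Lin28b, -5.64 in BM empty vector and -6.35 in FL empty vector under quantile scaling. It was -4.55, -4.44, -1.78 and -2.56 in the order Lin28b, BM empty vector, let-7 and FL empty vector under normexp, and -5.24, -5.27, -4.4 and -4.3 in that order over probes well above background on at least 1 array. Single probes that changed sign under normexp had let-7 differences of 0.56 (Igkv6-17), 0.5 (A_55_P2051044), 0.69 (Igkv4-51) and 0.11 (Igkv4-71), and differences between tissues of -0.01 (LOC100047628 at the J-C end), 0.13 (Igkv1-88) and 0.15 (Igkv12-89). A_55_P1988328 had a let-7 difference of 0.08 with quantile scaling and 0.08 in the authors' table, and -0.1 between tissues with quantile scaling. The cause was not tested. Leaving out 1 array turned the sign of uncalled Lin28b differences, which ranged from -0.15 to 0.42 (LOC100047628 at the J-C end), -0.28 to 0.02 (Igkv1-88), -0.38 to 0.56 (Igkv6-17), -0.17 to 0.39 (LOC100046496), -0.07 to 0.63 (Igkv2-109), -0.29 to 0.06 (Igkv8-24), -0.05 to 0.25 (Igkv12-89), -0.14 to 0.5 (A_55_P1988328), -0.09 to 0.26 (Igkv4-71), -0.17 to 0.05 (Igkv19-93), -0.18 to 0.13 (LOC675735) and -0.01 to 0.4 (LOC100046350). For let-7 they ranged from -0.03 to 0.13 (Igkv8-24) and -0.07 to 0.57 (Igkv12-89). In an alternative chosen after seeing the data, 8 of 9 J-proximal probes were negative with Lin28b under most settings, 7 of 8 with the stricter filter and 9 of 9 without Lin28b replicate 2. Signal over background limits FL, where dim probes have only a bound.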
